A study of Mus musculus with 8 samples.

Results

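Aminoacyl-tRNA synthetases were examined in mouse embryonic stem cells through 37 genes, picked by name from 17597 gene rows of 1 table of total RNA. All 37 listed symbols had a row. Of these genes, 21 encode cytosolic enzymes and 16 encode mitochondrial enzymes, whose symbols end in ars2. Tarsl2 also ends in 2, but its protein is known to act in the cytosol, and it was counted there. The cells were Cast x 129S hybrids in which METTL3, the catalytic subunit of the m6A writer complex, carries an FKBP12F36V degron at its C terminus, and in which a TetOn promoter stands before endogenous Xist on an allele that the labels give as 129S and the text of the study, for these clones, as Cast. No doxycycline was given to either group, so Xist was not switched on. There were 4 untreated libraries and 4 libraries from cells kept in dTAG-13, the compound that triggers loss of the tagged protein, for 26 h. Each group held 2 libraries of clone C3 and 2 of clone H5, and all cells were grown with LIF on inactivated fibroblast feeders.

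The table gives 1 mean count per gene over the 8 libraries of both groups, which was used here, and no column for a single library. The values below are therefore levels in these cells with treated and untreated libraries averaged, they carry no spread between libraries, and no effect of METTL3 loss was analysed here. Counting error alone, approximated by taking the reads of a gene as 8 times its mean count, gave exact 95% Poisson intervals with half-widths of 0.686% to 4.64% of the mean across the 37 genes. Differences between libraries come on top of that. In bulk RNA, fewer cells of a type and less RNA per cell cannot be told apart.

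Synthetases attach each amino acid to its tRNA and so set which amino acid a codon calls for. They fall into 2 unrelated structural classes, I and II. Mitochondria translate their own small genome with a separate set of enzymes, which are encoded in the nucleus and imported. Glycine and lysine are exceptions, since Gars and Kars are known to supply both compartments, and mitochondria make glutaminyl-tRNA through glutamyl-tRNA and an amidotransferase instead of a glutaminyl enzyme. In the cytosol several synthetases sit together in the multisynthetase complex, held by 3 scaffold proteins.

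The labelled cell type was checked against its markers. All 8 stem cell markers had a mean count of at least 10, from 1415 for Klf4 to 11934 for Pou5f1. That limit was also reached by 6 of the 7 feeder markers and 5 of the 6 markers of other germ layers. Among 7 feeder markers the fibrillar collagens were low, with mean counts of 19.8 for Col1a1, 13.8 for Col1a2 and 8.38 for Col3a1, while Fn1 (4941), Sparc (3052) and Vim (2073), which stem cells can also express, were higher, and Thy1 was at 116. The summed mean count of the 7 feeder markers was 10224, and none was at 0. The 6 markers of other germ layers summed to 269. The part of feeder RNA in the synthetase levels was not tested.

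Together the synthetase genes held a summed mean count of 94330, which was 0.647% of the reads assigned to genes. Cytosolic enzymes took 89.4% of that sum and mitochondrial enzymes 10.6%. To compare genes, the mean count was divided by the length of the gene's merged exons in kb, and this quantity is called the level here. The median level was 819 for the 21 cytosolic genes and 96.3 for the 16 mitochondrial genes, a ratio of 8.50. Genes are not replicates of a condition, so these medians are a description with no test. Of the 21 cytosolic genes, 19 had a level above that of every mitochondrial gene. The exceptions were Cars and Tarsl2. Yars (358) was the lowest of the 19, and its counting interval overlapped that of Rars2 (347), so the order of these genes could not be told. Per kb of the longest coding transcript 20 were above, all but Tarsl2. Per kb of coding sequence 19 were above, all but Tarsl2 and Vars, and Vars (587) was close to Tars2 (596), the highest mitochondrial gene with that length.

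The levels were also placed among 13463 background genes, those with a known length and a mean count of at least 10, whose median level was 81.2. The cytosolic genes had a median percentile of 92.4 in that distribution, and 13 of 21 were at or above the 90th percentile. The mitochondrial genes had a median percentile of 53.9, and 0 of 16 were at or above the 90th percentile. Mitochondrial synthetase transcripts thus lay on both sides of the middle of the distribution, with 10 of 16 above the 50th percentile. All 37 genes had a mean count of at least 100, so none was near the limit of detection.

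**Figure D1:**
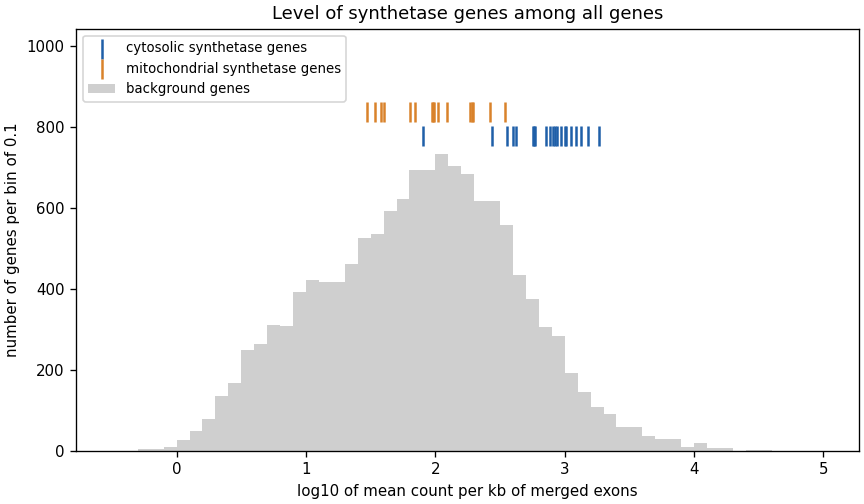
Number of background genes (grey bars) in bins of the log10 of the mean count per kb of merged exons, with a tick above for each synthetase gene. Ticks of the 21 cytosolic genes lie mostly in the upper tail, around a median level of 819, and those of the 16 mitochondrial genes around 96.3, near the middle of the grey distribution.

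Among cytosolic enzymes, the lysyl enzyme Kars had the highest level, 1831 (mean count 8175, 97.2nd percentile). Kars lies on chromosome 8 from 111993443 to 112011323 (GRCm38, minus strand). It was followed by the glycyl enzyme Gars on chromosome 6, with a level of 1526 and a mean count of 4759. Both enzymes that serve cytosol and mitochondria from 1 gene thus headed the order per kb of merged exons. Kars was also first with the other lengths, but Gars was 4th per kb of transcript and 8th per kb of coding sequence. The arginyl enzyme Rars came next with a level of 1336 and a mean count of 4314.

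Phenylalanyl-tRNA synthetase differs from the others in the cytosol in being built from 2 kinds of subunit, made by separate genes on chromosomes 8 and 1. The catalytic subunit Farsa had a mean count of 3243 and the subunit Farsb one of 3195, so their read numbers were close. Per kb of merged exons the levels were 715 and 1219, a ratio of Farsa to Farsb of 0.586. That order rests on the length used: the ratio was 1.13 per kb of the longest coding transcript and 1.18 per kb of coding sequence. For Farsb, 9.47% of the merged exons is shared with Sgpp2 on the opposite strand.

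The tryptophanyl enzyme Wars had a level of 1125 (mean count 3878), the asparaginyl enzyme Nars one of 1019.6 (mean count 4440.3) and the histidyl enzyme Hars one of 1009.6 (mean count 2470.4). The counting intervals of Nars and Hars overlapped per kb of merged exons, so their order could not be told with that length. Nars was higher per kb of the longest coding transcript (1618 against 1242) and per kb of coding sequence (2648 against 1618). The leucyl enzyme Lars had a level of 934 and the alanyl enzyme Aars one of 877, with mean counts of 5014 and 8136. Methionyl Mars (841), aspartyl Dars (819), threonyl Tars (763) and seryl Sars (588) lay in the middle of the cytosolic levels, with mean counts between 2879.7 for Mars and 4504 for Tars. Across all 37 genes ranked by level, 9 of 36 neighbouring pairs had overlapping counting intervals, and spread between libraries would add to these.

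The bifunctional enzyme Eprs, which carries a class I glutamyl part and a class II prolyl part in 1 protein, had the highest mean count of the 37 genes, 10227. Its rank changed most with the length used. Its merged exons cover 18102 bases, against 4906 for its longest coding transcript, and it ranked 16th per kb of merged exons with a level of 565 but 2nd per kb of transcript with 2085. Isoleucyl Iars had a level of 579 (mean count 3053), glutaminyl Qars one of 418 (mean count 2745) and valyl Vars one of 402 (mean count 2252). Tyrosyl Yars had a level of 358 (mean count 2128) and cysteinyl Cars one of 272 (mean count 1793).

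Tarsl2, a second threonyl enzyme of the cytosol, had the lowest level of the cytosolic genes at 80.7, with a mean count of 544. The level of Tars was 9.46 times as high. Tarsl2 was at the 49.9th percentile of the background genes, within the range of the mitochondrial enzymes.

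Cytosolic synthetase genes are textbook targets of ATF4, the transcription factor of the amino acid response, which binds composite elements, of which 1 form is TGATGCAA. RefSeq promoter windows (GRCm38.p6, 250 bases before to 50 after the start) were given for 28 of the members, 14 cytosolic and 14 mitochondrial, and were searched on both strands. The motif occurred in 4 of the 14 cytosolic and 0 of the 14 mitochondrial genes, against 1.03% of the 27025 genes with a window. The windows of 30 bases around it are printed for 3 of these genes, because they show the shared letters. They read 5′ to 3′ on the strand of the gene, with the motif or its reverse complement in capitals.
Iars: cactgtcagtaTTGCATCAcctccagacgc
Tars: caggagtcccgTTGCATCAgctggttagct
Yars: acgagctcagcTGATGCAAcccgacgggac
The windows lie at chr13:49682126-49682155 (Iars, plus strand), chr15:11399655-11399684 (Tars, minus strand) and chr4:129189895-129189924 (Yars, plus strand). Counted from the start given by RefSeq, the motif begins at base 3 in Yars, 7 in Iars and -15 in Tars. Iars and Tars carry it as the reverse complement and Yars in the direction of the gene. Allowing any base at the sixth letter (TGATGNAA, which includes the first motif) brought the count to 5 of 14 cytosolic and 0 of 14 mitochondrial genes, against 4.51% of all genes with a window. The 3 genes printed had levels of 358 (Yars), 579 (Iars) and 763 (Tars). A match is a description of the sequence and not a bound site.

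The members of the multisynthetase complex did not form a group of their own in level. The 8 enzyme genes of the complex (Kars, Rars, Lars, Mars, Dars, Iars, Eprs and Qars) had a median level of 830.0, from 418 to 1831. The other 13 cytosolic genes had a median of 763, from 80.7 to 1526, and the ratio of both medians was 1.09. It was 1.17 per kb of the longest coding transcript and 0.956 per kb of coding sequence, so its direction depended on the length. The scaffold genes had levels of 641 for Aimp2, 401 for Eef1e1 and 295 for Aimp1. By level Aimp2 lay above Iars (579), Eprs (565) and Qars (418), while Eef1e1 and Aimp1 lay below every enzyme gene of the complex. The other lengths were not applied to the scaffold genes, so it is not known whether this order holds with them. Not divided by length, the mean counts of the scaffold genes were 1059.8 to 1649.6. These were below the 2745 of Qars, the enzyme gene of the complex with the fewest reads.

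**Figure D2:**
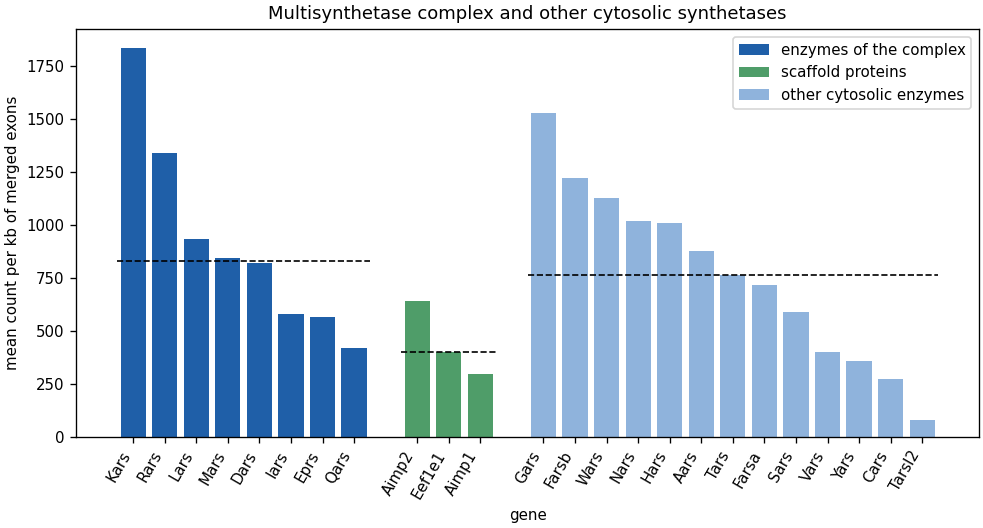
Mean count per kb of merged exons for each enzyme gene of the multisynthetase complex, each scaffold gene and each other cytosolic synthetase gene, with a dashed line at the median of each set. The medians of complex enzymes (830.0) and other cytosolic enzymes (763) lie close together, and the scaffold median (401) lies lower with this length, the only one applied to the scaffold genes.

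By structural class, the 11 cytosolic class II genes had a median level of 877 and the 9 class I genes one of 579, with Eprs in neither count. In mitochondria the medians were 104 for 7 class II genes and 93.4 for 9 class I genes, an order that turned per kb of transcript (185 for class II and 245 for class I). The ranges of both classes overlapped in each compartment.

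Mitochondrial levels ran from 29.6 to 347, an 11.7-fold range. The arginyl enzyme Rars2 was highest (level 347, mean count 962), followed by tyrosyl Yars2 (266, mean count 839). Per kb of coding sequence Tars2 (596) and Yars2 (592) were above Rars2 (555), and by mean count Iars2 was highest. Per kb of coding sequence Iars2 (563) and Rars2 could not be ordered, with counting half-widths of 1.68% and 2.24%. Alanyl Aars2 (194), isoleucyl Iars2 (192) and threonyl Tars2 (187) had levels close to each other, with mean counts of 926, 1708 and 1293. The counting intervals of neighbours in that trio overlapped. For Iars2, 24.2% of the merged exons overlaps genes on the opposite strand, among them Rab3gap2, and it is uncertain whether strand was used in counting.

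A middle group held histidyl Hars2 (level 122, mean count 523), seryl Sars2 (104, mean count 346), glutamyl Ears2 (97.1, mean count 500.5), prolyl Pars2 (95.4, mean count 295) and valyl Vars2 (93.4, mean count 510.1). Ears2, Pars2 and Vars2 could not be ordered by their counting intervals per kb of merged exons. Ears2 was the highest of them per kb of transcript (245) and per kb of coding sequence (319). Below them were phenylalanyl Fars2 (70.1, mean count 403), which in mitochondria works as a single chain, and cysteinyl Cars2 (64.3, mean count 465). The lowest levels belonged to asparaginyl Nars2 (40.1, mean count 279.6), tryptophanyl Wars2 (38.0, mean count 226), leucyl Lars2 (34.0, mean count 377) and methionyl Mars2 (29.6, mean count 334). Mars2 has a single exon of 11294 bases in the annotation, of which 1758 are coding, so its level rests on a long noncoding part. Per kb of coding sequence Mars2 had 190.1, against 139 for Lars2, which was then the lowest.

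Each mitochondrial enzyme was set beside the cytosolic enzyme for the same amino acid. Farsa and Farsb were averaged, Eprs stood for both glutamate and proline, and Tars rather than Tarsl2 was paired with Tars2. In all 16 pairs the cytosolic gene had the higher level, with a median ratio of 5.73 and a range from 1.34 to 29.6. The direction was the same in all 16 pairs per kb of transcript and per kb of coding sequence, with median ratios of 6.52 and 6.08.

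**Figure D3:**
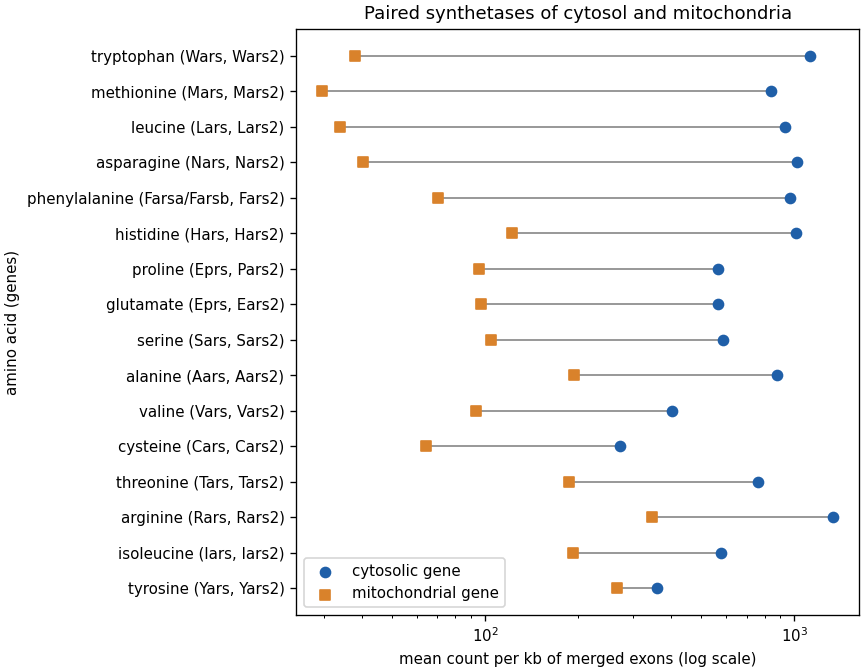
Mean count per kb of merged exons, on a log axis, for the cytosolic gene (circles) and the mitochondrial gene (squares) of each amino acid, joined by a line and ordered by their ratio. All 16 circles lie to the right of their squares, from 29.6-fold for tryptophan to 1.34-fold for tyrosine.

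The size of the gap differed among amino acids. Ratios above 10 were found for 5 pairs: tryptophan (29.6), methionine (28.4), leucine (27.5), asparagine (25.4) and phenylalanine (13.8). Per kb of merged exons the smallest were tyrosine (1.34), isoleucine (3.01), arginine (3.85) and threonine (4.09). The mitochondrial genes of these 4 pairs, Yars2, Iars2, Rars2 and Tars2, were among the 5 highest mitochondrial genes. The ratio divides by the mitochondrial level, so small ratios tend to go with high mitochondrial levels by construction. Of the cytosolic partners, Yars (358), Iars (579) and Tars (763) were below the cytosolic median of 819, and Rars (1336) was above it. The ratio for methionine was 28.4 per kb of merged exons and 5.55 per kb of coding sequence, and that for proline was 5.92 per kb of merged exons, 21.5 per kb of transcript and 11.7 per kb of coding sequence. With coding length 4 pairs were above 10, of which asparagine (13.5), tryptophan (12.9) and leucine (10.2) were also above 10 per kb of merged exons and proline was not. Methionine (5.55) and phenylalanine (6.61) were then below 10, and isoleucine had the smallest ratio, 1.43. The set of smallest ratios also depended on the length. Cysteine, at 4.24 per kb of merged exons, had 2.28 per kb of transcript and 2.56 per kb of coding sequence. Both were below the arginine ratios with those lengths, 3.97 and 3.93.

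**Figure D4:**
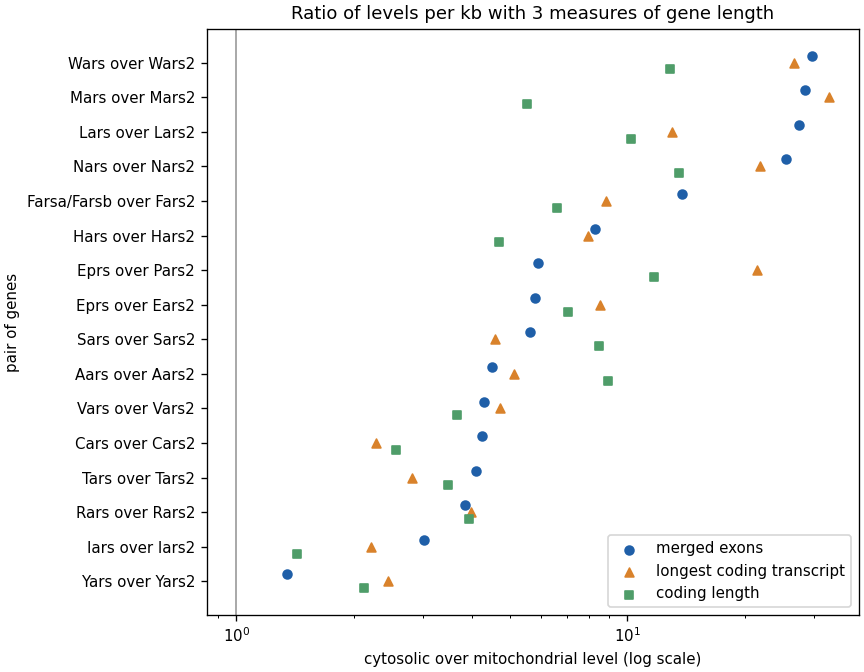
Ratio of the cytosolic to the mitochondrial level, on a log axis, for the 16 pairs with merged exons, the longest coding transcript or the coding sequence as the length. Every point lies to the right of the line at 1, while single pairs such as Mars over Mars2 (28.4, 32.9 and 5.55) move with the length.

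The same order of compartment medians was seen in the ribosomal protein genes, the partners of charged tRNA in translation. The 86 cytosolic ribosomal protein genes among the background genes had a median level of 4923 and the 77 mitochondrial ones a median of 429.7, a ratio of 11.5, beside 8.50 for the synthetases. The ranges of the ribosomal sets overlapped, from 17.1 to 18784 for cytosolic and from 58.8 to 1415 for mitochondrial genes. Both sets were picked by symbol, and the rule for the cytosolic set also admits paralogs whose symbols carry an added ending such as l. Whether such a paralog gave the low end of 17.1 was not examined. In both families the cytosolic median was the higher one. The difference between the 2 ratios was not tested.

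Other genes of tRNA charging were read from lists. The 3 genes of the mitochondrial amidotransferase that completes glutaminyl-tRNA had levels of 120.4 (Gatb, listed under its older symbol Pet112), 83.9 (Qrsl1) and 68.8 (Gatc), beside 97.1 for Ears2, which makes its substrate. Mtfmt, which formylates the initiator methionyl-tRNA in mitochondria, had a level of 77.0. Xpot, which exports tRNA from the nucleus, had a level of 806, and Trnt1, which adds the CCA end to tRNA, one of 474. Pstk and Sepsecs, which turn seryl-tRNA into selenocysteinyl-tRNA, had levels of 31.5 and 51.5, and Sephs2, which makes their selenium donor, one of 1257. The 4 genes that remove mischarged amino acids ranged from 105 for Dtd2 to 427 for Aarsd1, with Dtd1 at 192 and Prorsd1 at 173.

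Among elongation factors, Eef1a1, which carries charged tRNA to the cytosolic ribosome, had a level of 32934 and a mean count of 82104, above every synthetase. Of its exchange factor subunits, Eef1g (7565) and Eef1b2 (4188) also had levels above that of Kars, while Eef1d (939.7) lay within the cytosolic synthetases. In mitochondria Tufm had a level of 1435, above the 347 of Rars2, while its exchange factor Tsfm, at 281, was below Rars2.

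The structure of the genes was read from the annotation, since m6A in mRNA is known to gather in long internal exons and around stop codons. The longest coding transcripts had a median of 18 exons for cytosolic and 13.5 for mitochondrial genes, against 9 for the 13037 coding genes of the background. The longest internal exon had a median of 207 bases over the 35 members that have one and 218 bases over the background. It was longer than 400 bases in 3 members (8.57%), namely Fars2 with 633, Ears2 with 473 and Vars with 419, against 21.6% of 12072 background genes. The letters GGACT, the commonest form of the m6A consensus, occurred a median of 1.07 times per kb in the members' transcripts and 1.05 times per kb in the background. They were absent from 4 members (10.8%), namely Rars, Farsa, Tars2 and Pars2, against 7.27% of the background genes with a searched transcript. They were densest in Hars2, with 3.60 per kb. A match is a run of letters and not a methylated site.

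Members lie on 15 chromosomes, some as neighbours. Hars and Hars2 are transcribed in opposite directions on chromosome 18 and their 5′ ends overlap by 198 bases, yet their levels were 1009.6 and 122. Eprs and Iars2 are close together on chromosome 1, Eprs from 185363044 to 185428360 on the plus strand and Iars2 from 185284726 to 185329396 on the minus strand, with levels of 565 and 192. Vars and Vars2 both lie on chromosome 17, with levels of 402 and 93.4. Besides Iars2, more than 10% of the merged exons was shared with another gene for Aars, where 14.3% overlaps genes on the same strand, Exosc6 among them, and Fars2, with 10.7% on the opposite strand.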

How the data were processed

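Total RNA from 8 libraries, 4 per group, was sequenced by the authors as pairs. The protocol label speaks of RNA from chromatin, but the molecule label and the methods of the study give total RNA, which was taken as right. Per the study's methods, the authors discarded reads from ribosomal RNA, aligned the rest to mm10 with STAR, kept unique alignments, removed duplicates with Picard and ran TEtranscripts with default settings. The word reverse in the table's name leaves the strand setting of the counting uncertain. The deposited signal used here is the authors' mean over libraries of scaled read counts, not divided by length, and its sum was 14573411 over genes and 1719306 over 1097 transposable element subfamilies. Depth per library is not given in the sources used here. The 5 other columns hold the authors' comparison of dTAG-13 with untreated cells (fold change, its error, statistic and p-values) and were not used.

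Symbols were matched to GENCODE vM21 (GRCm38, the build of mm10), 16660 directly and 718 through another symbol, and 17376 genes had a length. All exons of a gene were merged to give its length. The longest protein-coding transcript and the coding sequence were alternatives. Levels, percentiles and exact 95% Poisson intervals were computed with Python 3.11.15, numpy 2.4.6, pandas 2.3.3 and scipy 1.17.1, and the script was tested on simulated data. Every member is named, as are genes of lists set with the design. The members and lists were chosen with earlier results of these data known, and the promoter and exon features were chosen after the table was seen. No test was run, because genes are not replicates. The promoter window of 1 member and 1 further alternative are not reported here.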

Additional observations from a re-analysis of the deposited data

How the results depend on the processing

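With the longest protein-coding transcript as length, the median level became 1259.7 for cytosolic enzymes, 187 for mitochondrial enzymes and 1450.1 for enzymes of the multisynthetase complex, with a ratio of cytosolic to mitochondrial medians of 6.72 and median percentiles of 92.95 and 59.98. With coding length the medians were 1881, 289 and 1799, the ratio 6.50 and the percentiles 88.6 and 52.3. With Tarsl2 counted as mitochondrial the cytosolic median was 830.0. Without Kars and Gars it was 763 and the ratio 7.93, and with geometric means the cytosolic level was 690.0 and the ratio 7.21. Over background genes with no minimum mean count the median percentiles were 94.1 for cytosolic and 64.3 for mitochondrial enzymes, and over those with a mean count of at least 100 they were 89.6 and 37.2. With transposable elements in the total, the share of reads in synthetase genes was 0.579%. In the 5 alternatives tried for it, the ratio of medians lay between 6.50 and 8.70. No paired analysis was possible because the table names no library, and for the same reason no library could be left out in turn.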
